A study of Mus musculus with 4 samples.

Results

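The zone at the last end of 4 mouse tibialis anterior muscles was compared with the zone next to it. Tibialis anterior, a mostly fast-twitch muscle of the shin, lifts the foot. Its RNA was measured by TOMO-seq: frozen serial sections are cut along 1 axis, and every section gets a barcode of its own before sequencing. Kept sections were those that the authors retained in their filtered tables, and they were placed by barcode number from 0 (first kept) to 1 (last kept). The last end zone (position 0.8 to 1) held 37 sections and the adjacent zone (0.6 to under 0.8) held 34, out of 171 kept sections in all. The 4 muscles form 1 group; strain, genotype, age and treatment are not given in the labels, nor which end was cut first, nor whether each muscle is from a different animal. The p-values therefore measure the spread among these 4 samples, which may be technical.

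Counts were summed per muscle and zone. The adjacent zone held 4632543, 3394639, 6650590 and 4301663 transcripts in muscles 1 to 4 and the last zone 4494999, 2007511, 4271457 and 3988175, lower in all 4 muscles. Single sections of the last zone ranged from 101463 to 1137235 transcripts, and the median section showed 9337 genes against 10587 in the adjacent zone. The muscle genes Acta1 and Ckm were at 1969 and 5557 CPM (counts scaled to a fixed library total) or more in every section of the last zone. Skin keratins and the other skin markers summed to at most 1.51 CPM of the library total in any sum of the last zone. Muscles 1 and 2 used another section barcode set than muscles 3 and 4.

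A muscle fibre ends at the myotendinous junction, where integrin and dystrophin complexes and specialised collagens tie its cytoskeleton to tendon collagen. Tendon cells make fibrillar collagens, leucine-rich repeat proteins that organise the fibrils, and lubricin, which lets surfaces glide. Motor nerve endings, by contrast, lie in an endplate band inside the muscle, and fast muscles hold oxidative and glycolytic fibres in unequal regions. Fibro-adipogenic progenitors (FAPs) are the interstitial cells that make much of the matrix between fibres.

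Between the last zone and the adjacent zone, 51 of 8194 genes passed the test, 17 higher and 34 lower in the last zone (edgeR's quasi-likelihood test with muscle as a block, Benjamini-Hochberg adjusted p under 0.05). These are 0.622% of the genes tested, 0.207% higher and 0.415% lower. At an unadjusted p under 0.05 there were 787 genes. DESeq2, run as an alternative, left 7784 genes without an adjusted p, so it is cited below only for genes that got one. Genes that rose included the tendon-matrix genes Chad and Prg4 and the muscle gene Mss51, and genes that fell included Cxcl14, Chrne, Lpl, Ndufa4 and the globins. Of the 51, 48 had the same sign in the 4 muscles, against 17% of all genes tested. Of the 51, 8 had levels in the last zone wholly above or below those of the adjacent zone, and 1.17% of all genes tested did. The test favours genes whose muscles differ alike, so nothing is read from these shares. The same fit on the other pairs of neighbouring zones called 0.47% of genes at the first end (zone 1 minus zone 2), 0.0723% for zone 2 minus zone 3 and 0.478% for zone 4 minus zone 3. All differences below are log2 values, last zone minus adjacent zone, with their standard error (SE), and zone levels are CPM after TMM scaling.

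**Figure D1:**
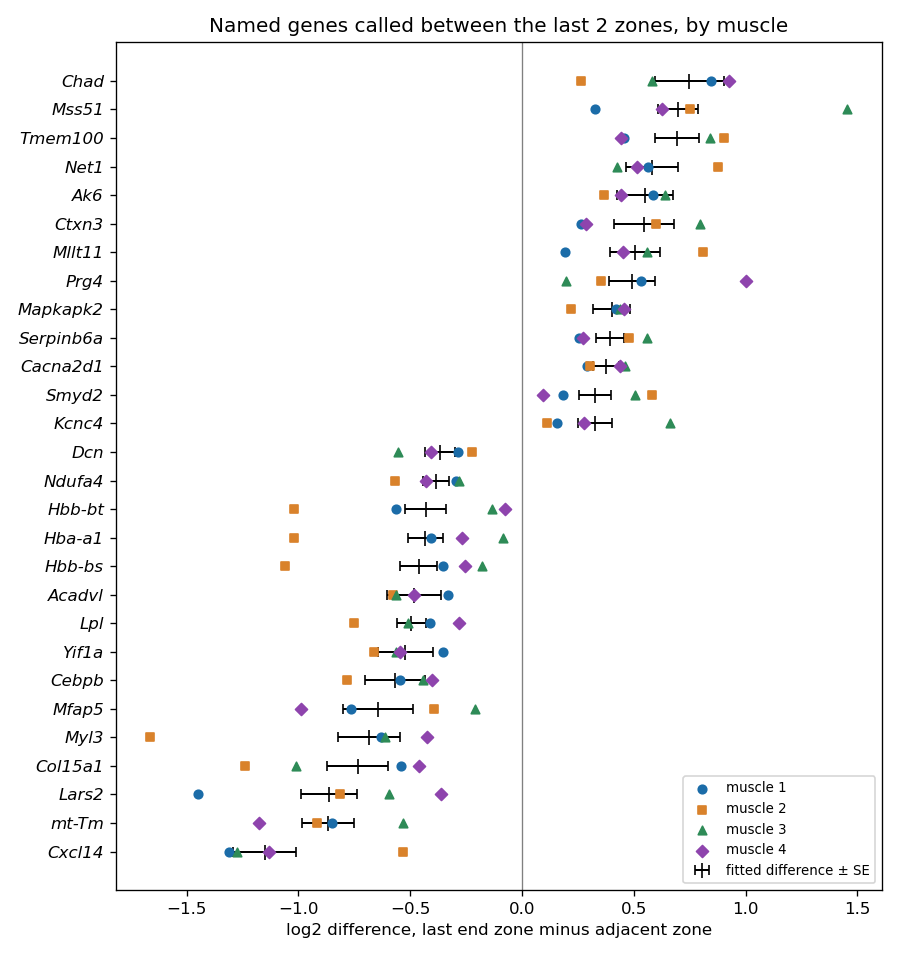
Log2 difference between the last end zone and the adjacent zone for the 28 genes that the naming rule took (x axis), by gene (y axis). Coloured symbols are the 4 muscles and the black bar is the fitted difference ± SE. All points of a gene lie on 1 side of 0, which the naming rule requires, and the 3 globins lie farthest from 0 in muscle 2.

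Of the tendon-matrix genes, Chad and Prg4 were called higher in the last zone. Chad encodes chondroadherin, a leucine-rich repeat protein of cartilage and tendon that binds collagen and integrin. It stood at 14.4, 7.22, 5.07 and 5.99 CPM in the adjacent zone of muscles 1 to 4 and 26.3, 8.76, 7.83 and 11.8 CPM in the last zone. Every muscle was higher in its last zone, but the groups overlapped, because muscle 1 was high in both zones. The difference was 0.75 ± 0.16 (adjusted p = 0.00703). Prg4 encodes lubricin and stood at 54.8, 39.99, 15.2 and 12.9 CPM in the adjacent zone of muscles 1 to 4 and 79.3, 51.3, 17.5 and 26.2 CPM in the last zone. Muscles 1 and 2 were higher than muscles 3 and 4 in both zones, and each muscle rose. The difference was 0.49 ± 0.10 (adjusted p = 0.00656). Both calls depended on single muscles, and were lost without muscle 1 for Chad and Prg4 (adjusted p = 0.384 to 0.417) and without muscle 4 for Prg4 (adjusted p = 0.064).

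The other tendon genes did not pass. Of the 12 genes on the tendon list 7 were tested, 2 were called higher and none lower, and the median difference was 0.09, against 0.00 over all genes tested. Fmod, a fibril-organising proteoglycan, had 12.3, 3.33, 5.67 and 6.29 CPM in the adjacent zone of muscles 1 to 4 and 18.7, 3.34, 5.99 and 14.8 CPM in the last zone, with a difference of 0.58 ± 0.18 (adjusted p = 0.133). It was far higher in the last zone of muscle 4 and nearly level in muscles 2 and 3. Thbs4, which is expressed at muscle attachment sites, had a difference of -0.03, Prelp 0.09, Cilp -0.02 and Scx, the tendon transcription factor, -0.09 (adjusted p from 0.885 to 0.991). Mkx, Tnmd, Comp, Kera and Cilp2 were too low to test. Tnmd, a defining tendon marker, was at 0 in 16 of the 37 sections of the last zone and in 19 of 34 of the adjacent zone. The summed tendon list was higher in the last zone in all 4 muscles, at 92.3 to 233 CPM of the library total against 80.1 to 177. This sum includes the called genes Chad and Prg4, so it does not show whether the other members rose. A sum without Chad and Prg4 was not tested. In bulk sections, more cells of a type and more RNA per cell cannot be told apart.

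Angptl7, a secreted angiopoietin-like protein, had the largest positive difference of the 51 genes but few counts. It was at 4.74, 3.61, 0.597 and 0.898 CPM in the adjacent zone of muscles 1 to 4 and 12.6, 10.4, 1.61 and 2.95 CPM in the last zone. All 4 muscles rose, and those of muscles 3 and 4 rest on very low levels. The difference was 1.46 ± 0.25 (adjusted p = 3.06e-04). Angptl7 lies under the naming rule's mean of 10 CPM and was singled out after its values were seen. Without muscle 1 and without muscle 2 it was too low to test, and it was called in the other 2 fits that left out 1 muscle. In 4 bins of 0.1 of the length, from 0.6 to 1, Angptl7 had 1.55 ± 1.19, 3.39 ± 3.18, 5.66 ± 4.83 and 10.2 ± 8.17 CPM of the library total (SD, n = 4), and 10 of 37 sections of the last zone held none.

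**Figure D2:**
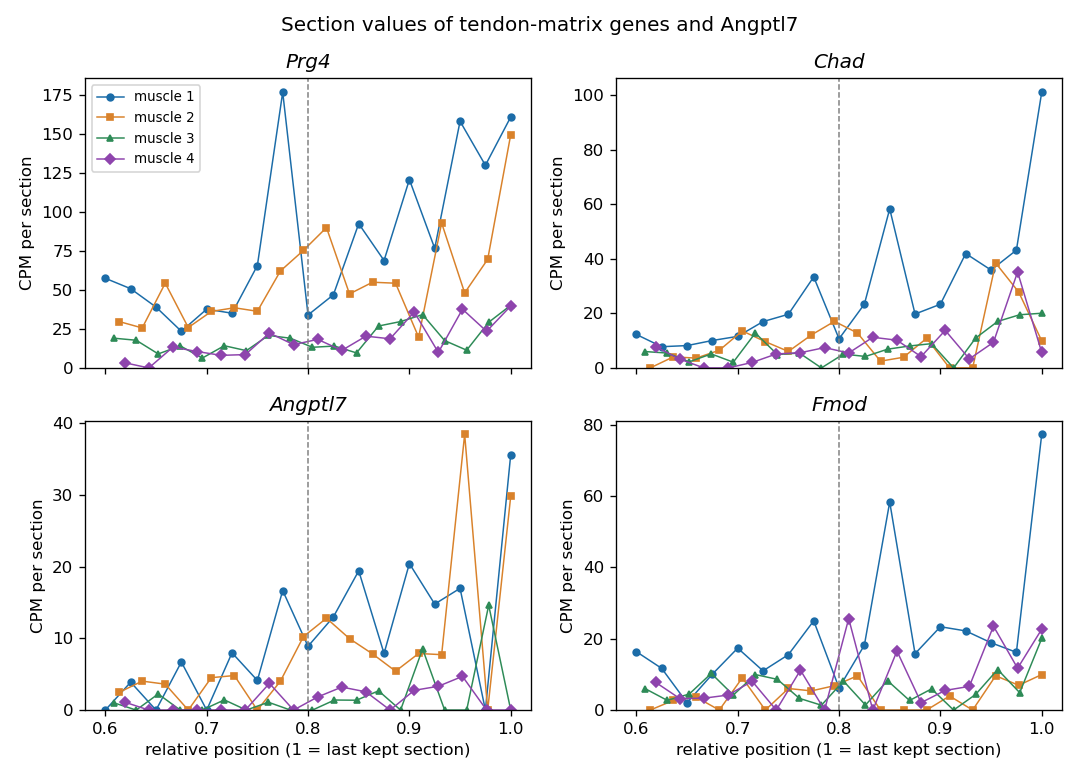
CPM of the library total in single sections (y axis) against relative position from 0.6 to 1 (x axis) for Prg4, Chad, Angptl7 and Fmod, 1 line per muscle; the dashed line at 0.8 separates the zones. Muscles 1 and 2 lie mostly above muscles 3 and 4 for Prg4, and the highest Chad value of each muscle lies at a position above 0.9.

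Within the last zone, edgeR called Chad and Prg4 higher in its outer part (position 0.9 to 1) than in its inner part (0.8 to under 0.9). DESeq2, which gave all 5 tested tendon genes an adjusted p, called 0 of them here, and limma called 0. In this comparison edgeR called 11 of 5338 genes (0.206%), 3 higher (0.0562%) and 8 lower (0.15%). Chad had 17.6, 5.50, 5.66 and 10.6 CPM in the inner part of muscles 1 to 4 and 40.1, 14.4, 14.6 and 13.5 CPM in the outer part, higher outside in each muscle, and a difference of 1.08 ± 0.21 (adjusted p = 0.00571). Prg4 had 46.9, 48.8, 14.9 and 22.3 CPM in the inner part of muscles 1 to 4 and 129.5, 57.6, 25.3 and 32.1 CPM in the outer part, with the largest gap in muscle 1, and a difference of 0.89 ± 0.16 (adjusted p = 0.00288). The third gene that rose, outside the naming rule, was Scd1, a fatty acid desaturase, with 1.83, 0.687, 6.55 and 2.12 CPM in the inner part of muscles 1 to 4 and 12, 19.95, 1.95 and 12.7 CPM in the outer part. It was higher outside in muscles 1, 2 and 4 and lower in muscle 3, with a difference of 1.77 ± 0.41 (adjusted p = 0.0496). The adipocyte marker Adipoq was at 0 in 11 of the 20 sections of the outer part and averaged 5.21 ± 5.69 CPM of the library total there (SD, n = 4), highest in muscle 2 at 13.2; its part in the Scd1 value was not tested. These calls were lost without muscle 1 for Chad and Prg4 (adjusted p = 0.841 to 0.996), without muscle 2 for Scd1 (adjusted p = 0.299) and without muscle 4 for Scd1 (adjusted p = 0.394). With the last kept section left out, Scd1 had a difference of 1.52 (adjusted p = 0.0774).

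Genes of the myotendinous junction and the fibrillar collagens did not pass between the zones. Of 14 junction and integrin adhesion genes, 14 were tested and none was called, with 7 above 0 and 7 below and a median of 0.01; 2 had an unadjusted p under 0.05, limma called none, and DESeq2 gave an adjusted p for 0 of them. Col22a1, the collagen of the junction itself, had 1.98, 2.22, 2.39 and 4.79 CPM in the adjacent zone of muscles 1 to 4 and 3.37, 2.50, 3.46 and 6.56 CPM in the last zone, higher in each muscle at levels of a few CPM, with a difference of 0.51 ± 0.27 (adjusted p = 0.584). Ankrd1, which binds titin and responds to stretch, had differences of 0.58, 1.58, 0.13 and 0.22 in muscles 1 to 4 and a fitted difference of 0.67 ± 0.22 (adjusted p = 0.166). Of 10 fibrillar and fibril-associated collagen genes 6 were tested and edgeR called none (2 at an unadjusted p under 0.05). Col1a1 and Col1a2, the chains of type I collagen, were higher in each muscle, by 0.27 ± 0.08 (adjusted p = 0.0969) and 0.26 ± 0.07 (adjusted p = 0.0658), and Col3a1 had -0.11 (adjusted p = 0.748). Where limma gave each section equal weight, both type I chains passed, with 0.46 ± 0.10 and 0.37 ± 0.08 (adjusted p = 0.016 and 0.025). DESeq2 gave Col1a1 no adjusted p and did not call Col1a2. Of 15 tested genes of matrix remodelling edgeR and limma called none, and none had an unadjusted p under 0.05.

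Among muscle genes that rose, Mss51 was called in every fit that left out 1 muscle. Mss51 (chr14:20482867-20496901, GRCm38, minus strand) encodes a mitochondrial protein of skeletal muscle with a zinc finger. It had 180.3, 154, 21.6 and 67.1 CPM in the adjacent zone of muscles 1 to 4 and 226, 259, 60.1 and 104 CPM in the last zone. Each muscle rose; muscle 3 was lowest in both zones and rose most, and the level of muscle 1 in its adjacent zone was above that of muscles 3 and 4 in their last zones. The difference was 0.70 ± 0.09 (adjusted p = 3.22e-06), or 0.52 in muscles 1 and 2 alone and 1.01 in muscles 3 and 4 alone. In these bins it averaged 88.6 ± 69.9, 128 ± 97.6, 176 ± 132 and 169 ± 115 CPM of the library total (SD, n = 4), and the mean was highest in the third bin.

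Tmem100, a membrane protein known as a target of BMP signalling in endothelium, had 17.2, 21.4, 38.5 and 32.9 CPM in the adjacent zone of muscles 1 to 4 and 23.8, 40.5, 69.3 and 44.9 CPM in the last zone. It was higher in the last zone of each muscle, and the groups overlapped. The difference was 0.69 ± 0.10 (adjusted p = 2.12e-05). Of the 12 endothelial markers 11 were tested and none was called by edgeR or limma (1 at an unadjusted p under 0.05); 10 were below 0, with a median of -0.10. Cacna2d1, the alpha2-delta-1 subunit of the muscle calcium channel, had 279.9, 314, 300.3 and 251 CPM in the adjacent zone of muscles 1 to 4 and 342, 387, 413 and 341 CPM in the last zone. All 4 values of the last zone lay above all 4 of the adjacent zone. The difference was 0.37 ± 0.06 (adjusted p = 6.43e-05). Serpinb6a, an inhibitor of serine proteases, rose by 0.39 ± 0.06 (adjusted p = 1.27e-04); it shares its locus with genes on the opposite strand, and use of strand in counting is not given. Tmem100, Cacna2d1 and Serpinb6a were also called without any 1 muscle.

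Further genes that rose have varied roles. Net1, an exchange factor for RhoA, had 18.2, 15, 16.7 and 20.1 CPM in the adjacent zone of muscles 1 to 4 and 27.1, 27.9, 22.6 and 28.9 CPM in the last zone, with no overlap between the zones, and rose by 0.58 ± 0.12 (adjusted p = 0.00421). Mapkapk2, the kinase activated by p38, rose by 0.40 ± 0.08; Smyd2, a lysine methyltransferase found at the sarcomere, by 0.33 ± 0.07; and Kcnc4, the potassium channel subunit Kv3.4, by 0.33 ± 0.07 (adjusted p = 0.00621, 0.00961 and 0.0214). Ak6, a nuclear adenylate kinase, rose by 0.55 ± 0.13, Mllt11 by 0.50 ± 0.11 and Ctxn3 by 0.55 ± 0.13 (adjusted p = 0.0214, 0.0138 and 0.0391). Calls were lost without muscle 1 for all 7 (adjusted p = 0.103 to 0.278), without muscle 2 for Net1, Smyd2, Ak6, Mllt11 and Ctxn3 (adjusted p = 0.0503 to 0.151), without muscle 3 for Smyd2, Kcnc4, Ak6, Mllt11 and Ctxn3 (adjusted p = 0.0939 to 0.45) and without muscle 4 for Mapkapk2, Kcnc4, Ak6, Mllt11 and Ctxn3 (adjusted p = 0.0503 to 0.0706). Fam76a, F830016B08Rik and Frmd4a complete the 17, with differences of 0.88, 0.34 and 0.71; they fall outside the naming rule. Frmd4a was lower in the last zone of muscle 3. These calls were lost without muscle 1 for Fam76a, F830016B08Rik and Frmd4a (adjusted p = 0.125 to 0.805), without muscle 2 for F830016B08Rik (adjusted p = 0.0871), without muscle 3 for Fam76a (adjusted p = 0.238) and without muscle 4 for Fam76a and F830016B08Rik (adjusted p = 0.0646 to 0.0956).

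**Figure D3:**
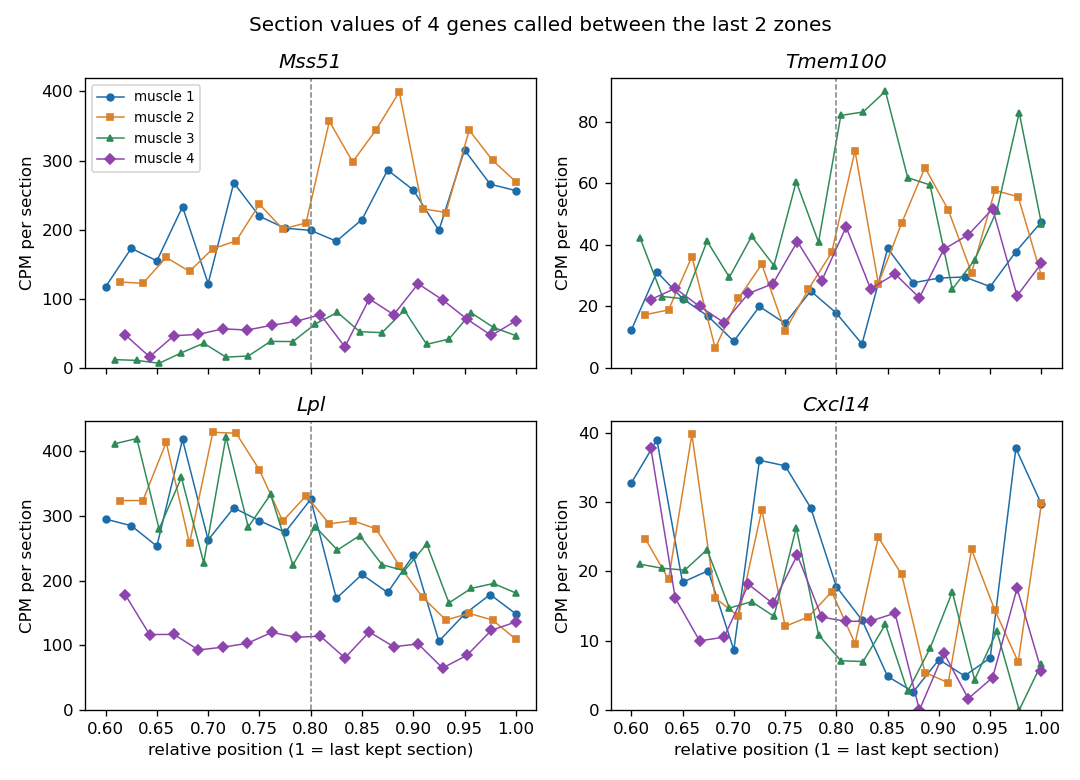
CPM of the library total in single sections (y axis) against relative position from 0.6 to 1 (x axis) for Mss51, Tmem100, Lpl and Cxcl14, 1 line per muscle; the dashed line at 0.8 separates the zones. Mss51 lies apart between muscles 1 and 2 and muscles 3 and 4, and the mean of Lpl is lowest in the last bin.

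Lpl and Acadvl, which serve fatty acid use, and Ndufa4, of the respiratory chain, fell in the last zone. Lpl encodes lipoprotein lipase, which frees fatty acids from circulating triglycerides. It had 269, 313, 333 and 158 CPM in the adjacent zone of muscles 1 to 4 and 202, 186, 234 and 129.6 CPM in the last zone. Each muscle fell; muscle 4 was lowest in both zones, and the groups overlapped through it. The difference was -0.49 ± 0.06 (adjusted p = 3.64e-06). In these bins Lpl averaged 282 ± 97.8, 265 ± 106, 222 ± 79.3 and 150.3 ± 42.3 CPM of the library total (SD, n = 4). Acadvl, the first enzyme of long-chain fatty acid oxidation, fell by 0.48 ± 0.12 (adjusted p = 0.0399). All 16 genes of fatty acid uptake and oxidation were tested; 2 were called lower and none higher, 15 were below 0, and the median was -0.22. Over all genes tested 49.2% were below 0. Cd36, the fatty acid transporter, had -0.29 and Acadl -0.24 (adjusted p = 0.0512 and 0.0642).

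Ndufa4, a subunit of cytochrome c oxidase, had 319, 333, 507 and 522 CPM in the adjacent zone of muscles 1 to 4 and 259.6, 225, 417 and 387 CPM in the last zone. Each muscle fell, and the level of muscles 3 and 4 in the last zone was above that of muscles 1 and 2 in the adjacent zone. The difference was -0.39 ± 0.06 (adjusted p = 6.01e-05). Of 24 nuclear genes of oxidative phosphorylation 24 were tested, 1 was called lower and none higher, 22 were below 0, and the median was -0.09. Of 12 citric acid cycle genes none was called by edgeR or limma, nor by DESeq2 among the 6 with an adjusted p; 9 were below 0 and 4 had an unadjusted p under 0.05. Outside the lists, and named after their values were seen, Atp5g3 (the c subunit of ATP synthase), Ndufb3 and Ndufab1 (complex I) and Ckmt2 (mitochondrial creatine kinase) were called, with differences of -0.32, -0.28, -0.27 and -0.28. Lpl, Ndufa4 and Atp5g3 were called without any 1 muscle, while other calls were lost without muscle 1 for all 4 (adjusted p = 0.16 to 0.328), without muscle 2 for all 4 (adjusted p = 0.134 to 0.201), without muscle 3 for Acadvl and Ndufb3 (adjusted p = 0.0853 to 0.182) and without muscle 4 for Acadvl, Ndufb3 and Ndufab1 (adjusted p = 0.107 to 0.186).

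Of 15 mitochondrially encoded genes, 2 were called lower and 13 were below 0, directions that turned for most of them with uncorrected UMIs. mt-Atp8 fell by 0.31 ± 0.06 (adjusted p = 0.00421) and mt-Nd1 had -0.30 ± 0.07 (adjusted p = 0.0214). DESeq2 called mt-Nd1 lower too, and limma with equal section weights did not call it. The median section of mt-Nd1 was higher in the last zone of muscles 1, 2 and 4 and lower in that of muscle 3. Single sections reached 84602 CPM of the library total in the adjacent zone and 63349 in the last. For 13 of the 15 genes, mt-Nd1 among them, at least 90% of all possible unique molecular identifiers (UMIs) were used in 1 or more sections. The difference of mt-Nd1 turned to 0.39 (adjusted p = 2.91e-04) when distinct UMIs were counted without correction, and 2 of the 15 genes were then below 0, with 9 called higher and 1, mt-Atp8, called lower. The direction of these genes as a group thus depended on the correction for repeated UMIs. The calls were lost without muscle 2 for mt-Atp8 and mt-Nd1 (adjusted p = 0.0701 to 0.154), without muscle 3 for mt-Nd1 (adjusted p = 0.106) and without muscle 4 for mt-Atp8 and mt-Nd1 (adjusted p = 0.0706 to 0.0946). The mitochondrial transfer RNA gene mt-Tm fell by 0.87 ± 0.11 (adjusted p = 4.32e-06). Mitochondrial genes took 58%, 59.1%, 63.1% and 67.1% of the counts in the adjacent zone of muscles 1 to 4 and 58.6%, 55.4%, 62.5% and 65.8% in the last zone.

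Most glycolytic and fast-fibre genes had small differences above 0, and edgeR called none of them. Of 16 tested genes of glycolysis and glycogen use 13 were above 0, with a median of 0.10 and the highest value in Pkm, pyruvate kinase, at 0.21 (adjusted p = 0.0681). Of 13 fast-fibre genes 11 were above 0, with a median of 0.08; 5 of them used at least 90% of all UMIs in some section. At an unadjusted p under 0.05 there were 6 and 7 genes of these lists. DESeq2 called the fast light chain Myl1, at 0.21 ± 0.06 (adjusted p = 0.0368), and limma called it and Actn3 and Casq1, at 0.28 ± 0.06, 0.27 ± 0.07 and 0.28 ± 0.07 (adjusted p = 0.0098, 0.0376 and 0.0358); neither called a glycolytic gene, where 13 of the 16 had an adjusted p from DESeq2. With distinct UMIs counted without correction, 12 of the 13 fast-fibre genes were above 0 and edgeR called 6 of them higher. That fit called 38 of 7880 genes higher in all, among them 9 of the 15 mitochondrially encoded genes, which were mostly below 0 with the correction. How far the missing correction made the fast-fibre calls was not tested, so nothing is read from them. Hk2, which phosphorylates glucose on entry, lies outside these lists and fell by 0.31 ± 0.08 (adjusted p = 0.0357), a call lost without muscle 1 (adjusted p = 0.386), without muscle 2 (adjusted p = 0.168) and without muscle 4 (adjusted p = 0.107).

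The slow-fibre light chain Myl3 had 36.4, 10.3, 17.2 and 14.7 CPM in the adjacent zone of muscles 1 to 4 and 23.4, 2.92, 11.1 and 10.8 CPM in the last zone. Each muscle fell, muscle 2 most. The difference was -0.68 ± 0.14 (adjusted p = 0.00443), and the call was lost without muscle 1 (adjusted p = 0.291). Of 10 slow-fibre genes 5 were tested and 4 were below 0. Among myosin heavy chains, which define the fibre types, Myh4 (type IIB) had 0.14, Myh1 (IIX) -0.19 and Myh2 (IIA) -0.23, none called by edgeR (adjusted p = 0.404, 0.144 and 0.135); Myh7 was too low to test. With equal section weights limma called Myh2, at -0.37 ± 0.08 (adjusted p = 0.0195).

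Myh2 was called within the last zone. It had 676, 395, 209 and 103 CPM in the inner part of muscles 1 to 4 and 339, 167, 150.0 and 86.9 CPM in the outer part. Each muscle fell in the outer part, muscles 1 and 2 by more than muscles 3 and 4, and the difference was -0.79 ± 0.12 (adjusted p = 1.12e-04). In these bins, Myh2 averaged 375 ± 263, 331 ± 244, 386 ± 295 and 179 ± 111 CPM of the library total (SD, n = 4), and the mean of the last bin was the lowest. Ankrd2, a stretch-responsive titin-binding protein found mainly in slow fibres, had 16.5, 8.25, 11 and 16.4 CPM in the inner part of muscles 1 to 4 and 6.76, 2.22, 1.95 and 3.38 CPM in the outer part. All 4 outer values lay below all 4 inner values, and the difference was -1.75 ± 0.32 (adjusted p = 0.00288). Between the whole zones Ankrd2 was not called (-0.25, adjusted p = 0.664). Both genes were called within the last zone without any 1 muscle, and Ankrd2 was the 1 gene called of 13 tested on the stretch-responsive list; between the zones 14 were tested, none was called and 6 had an unadjusted p under 0.05 (limma called 0, and DESeq2 called 0 of the 6 with an adjusted p). Besides these and the 4 globins described below, the genes called lower within the last zone were Cmss1 and Gm48099, outside the naming rule, at -0.87 and -1.10.

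The endplate gene Chrne fell towards the last section. Chrne encodes the epsilon subunit of the adult acetylcholine receptor and is expressed by the nuclei under the endplate. It had 10.9, 5.83, 2.84 and 8.09 CPM in the adjacent zone of muscles 1 to 4 and 6.94, 2.09, 1.38 and 1.97 CPM in the last zone. Each muscle fell, and the last zone of muscle 1 stayed above the adjacent zone of muscles 2 and 3. The difference was -1.05 ± 0.24 (adjusted p = 0.0215). Chrne was at 0 in 20 of 37 sections of the last zone and in 3 of 34 of the adjacent zone, and in the bins it averaged 7.79 ± 4.08, 6.08 ± 4.04, 4.42 ± 4.00 and 1.57 ± 1.74 CPM of the library total (SD, n = 4). The last bin held 11 Chrne transcripts over 20 sections, where sections were also shallower. The call was lost without muscle 1 (adjusted p = 0.125), without muscle 2 (adjusted p = 0.13) and without muscle 4 (adjusted p = 0.18). Of 13 endplate genes 8 were tested and only Chrne was called; 5 were below 0, with a median of -0.09. Chrne (chr11:70614883-70619216, GRCm38, minus strand) overlaps 4930544D05Rik on the opposite strand, and reads of the 2 cannot be told apart without strand.

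The start of Chrne is shown because acetylcholine receptor promoters are known for the N-box, a motif of endplate genes. The RefSeq window on the minus strand at chr11:70619145-70619444 (GRCm38.p6; 250 bases before to 50 after the start) reads 5′ to 3′, with the match to CCGGAA in capitals:
Chrne: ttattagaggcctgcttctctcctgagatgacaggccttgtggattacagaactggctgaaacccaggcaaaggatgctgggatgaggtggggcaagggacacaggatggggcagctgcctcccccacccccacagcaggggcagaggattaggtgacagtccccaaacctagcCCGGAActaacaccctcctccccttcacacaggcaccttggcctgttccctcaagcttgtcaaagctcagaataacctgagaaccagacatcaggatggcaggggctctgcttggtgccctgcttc
The match begins 76 bases before the start. Searched on both strands, CCGGAA or its reverse complement was present in 14.9% of 32851 such windows of all genes and in those of 2 of 9 endplate genes found in the table, Chrne and Prkar1a. A match is a description of the letters in this window. Prkar1a had a difference of -0.32 (adjusted p = 0.0526).

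**Figure D4:**
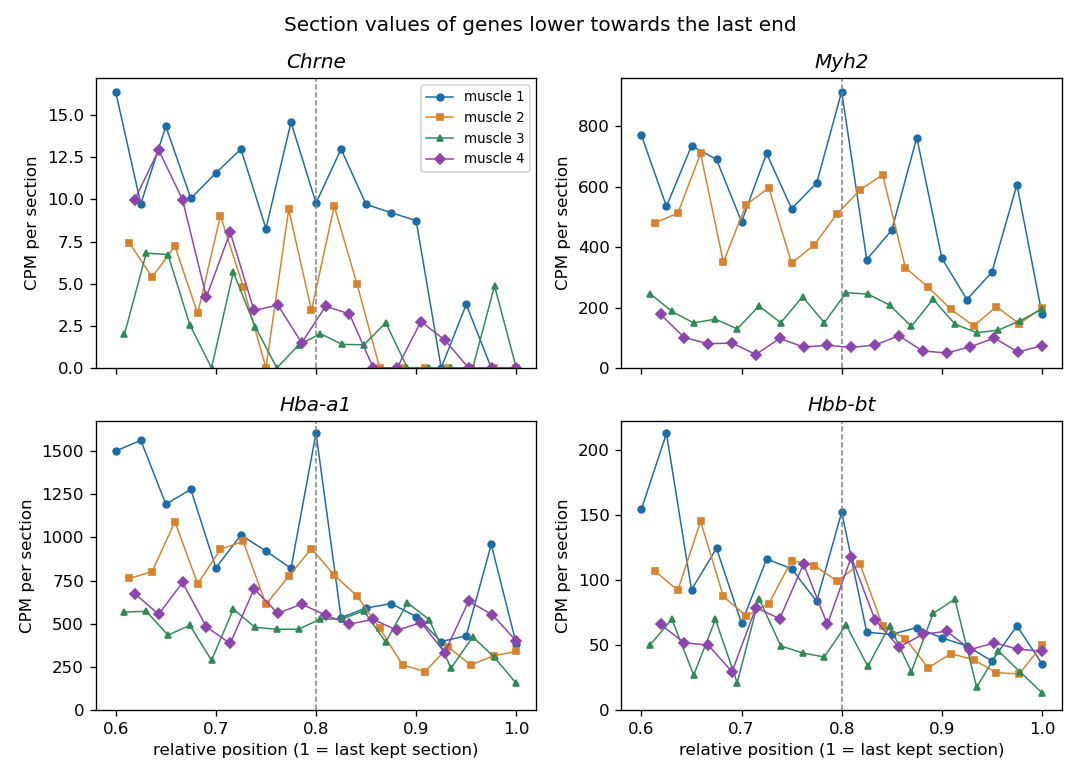
CPM of the library total in single sections (y axis) against relative position from 0.6 to 1 (x axis) for Chrne, Myh2, Hba-a1 and Hbb-bt, 1 line per muscle; the dashed line at 0.8 separates the zones. Chrne is at 0 in 15 of the 20 sections from 0.9 on, and Myh2 is lower there than from 0.8 to 0.9 in each muscle.

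Cxcl14, Dcn and Mfap5, markers of FAPs, fell in the last zone. Cxcl14, a chemokine, had 27.3, 18.3, 18.5 and 25.8 CPM in the adjacent zone of muscles 1 to 4 and 10.7, 12.5, 7.37 and 11.5 CPM in the last zone. All 4 values of the last zone lay below all 4 of the adjacent zone, and muscle 2 fell least. The difference was -1.15 ± 0.14 (adjusted p = 1.29e-06), called without any 1 muscle. Dcn, decorin, which binds collagen fibrils, fell by 0.37 ± 0.07 (adjusted p = 0.00109), and Mfap5, a microfibril protein, fell by 0.64 ± 0.16 (adjusted p = 0.0357). Of the 12 FAP markers 9 were tested, 3 were called lower and none higher, and 9 of 9 were below 0 with a median of -0.27. Pdgfra, the defining FAP receptor, had -0.27 (adjusted p = 0.758). The list's summed level was lower in the last zone in 3 muscles, at 343 to 554 CPM of the library total against 414 to 650, and higher in muscle 2.

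A further 2 called matrix genes lie on the list of basement membrane and endomysium. Col15a1, a collagen that joins basement membranes to the interstitium, had 18, 16.4, 16.3 and 33.5 CPM in the adjacent zone of muscles 1 to 4 and 12.2, 6.67, 7.83 and 24.3 CPM in the last zone, lower in each muscle, with a difference of -0.73 ± 0.14 (adjusted p = 0.00175). Col6a2, a chain of the microfibrillar collagen VI, fell by 0.32 ± 0.08 (adjusted p = 0.041), while its partner chains Col6a1 and Col6a3 had 0.04 and -0.21 (adjusted p = 0.976 and 0.747). Of 15 genes of this list 13 were tested and 7 were below 0. The calls were lost without muscle 1 for all 4 (adjusted p = 0.103 to 0.498), without muscle 2 for Mfap5 and Col6a2 (adjusted p = 0.0791 to 0.151) and without muscle 4 for Mfap5 and Col6a2 (adjusted p = 0.154 to 0.229).

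The globin genes, which mark red blood cells, fell in the last zone. Hba-a1 had 1006, 776, 489 and 762 CPM in the adjacent zone of muscles 1 to 4 and 759, 382, 461 and 633 CPM in the last zone, lower in each muscle, with differences of -0.41, -1.02, -0.08 and -0.27 in muscles 1 to 4. The fitted differences were -0.43 ± 0.08 for Hba-a1, -0.46 ± 0.08 for Hbb-bs, -0.43 ± 0.09 for Hbb-bt and -0.63 ± 0.09 for Hba-a2 (adjusted p = 7.08e-04, 6.15e-04, 0.00961 and 1.88e-05). Between the zones limma called 3 of these 4 genes, and DESeq2 called 0 of the 3 with an adjusted p. Hba-a2 was at 708, 531, 8.81 and 10.8 CPM in the adjacent zone of muscles 1 to 4 and 511, 269, 9.21 and 9.84 CPM in the last zone; it was about level in muscles 3 and 4. The edgeR calls were lost without muscle 1 for all 4 globins (adjusted p = 0.0523 to 0.498) and without muscle 2 for all 4 (adjusted p = 0.0876 to 0.26). The globin pairs are near-identical copies, so their separate values are uncertain. edgeR also called all 4 lower in the outer than in the inner part of the last zone. The fitted differences were -0.62 ± 0.10, -0.55 ± 0.11, -0.70 ± 0.13 and -0.62 ± 0.13 in the same order (adjusted p = 4.05e-04, 0.0053, 0.00523 and 0.0186). In muscle 4, however, Hba-a2 was higher in the outer part, at 9.83 against 6.15 CPM of the library total. DESeq2 called 1 of the 4 there, all 4 with an adjusted p, and limma called 1. Of the edgeR calls within the last zone that of Hba-a1 held without any 1 muscle. The others were lost without muscle 1 for Hbb-bs, Hbb-bt and Hba-a2 (adjusted p = 0.391 to 0.996) and without muscle 2 for Hba-a2 (adjusted p = 0.337). None of the tested smooth muscle, macrophage or Schwann cell markers was called between the zones by edgeR or limma; 2, 1 and 1 of them had an unadjusted p under 0.05 with edgeR.

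Tpsb2, a mast cell tryptase, had 12.5, 9.44, 1.79 and 8.68 CPM in the adjacent zone of muscles 1 to 4 and 5.26, 6.67, 1.38 and 1.64 CPM in the last zone. It fell by 1.13 ± 0.24 (adjusted p = 0.00961), and the call was lost without muscle 1 (adjusted p = 0.414) and without muscle 4 (adjusted p = 0.115). Tpsb2 is not on the list of mast cell and lymphocyte markers, of which 7 of 9 were too low to test. The 2 tested, the mast cell genes Mcpt4 and Cpa3, went opposite ways, with differences of -0.55 and 0.04 between them. Neither was called by edgeR or had an unadjusted p under 0.05. Cebpb, a transcription factor of inflammation and fat, fell by 0.57 ± 0.14; Yif1a, a protein of vesicle transport, fell by 0.52 ± 0.12; and Lars2, the mitochondrial leucyl transfer RNA synthetase, fell by 0.86 ± 0.12 (adjusted p = 0.0303, 0.0313 and 2.12e-05). These calls were lost without muscle 1 for Cebpb, Yif1a and Lars2 (adjusted p = 0.12 to 0.321), without muscle 2 for Cebpb and Yif1a (adjusted p = 0.143 to 0.189), without muscle 3 for Yif1a (adjusted p = 0.111) and without muscle 4 for Cebpb and Yif1a (adjusted p = 0.0503 to 0.107). The remaining genes called lower were Gm48099, Gm15564, Gm15543, Gm32772, Sp100, Rps21, Rpl39 and Pfn1, with differences from -1.07 to -0.26. Gm15564 was higher in the last zone of muscle 4, with bins of 17.7 and 23.6 CPM of the library total against 13.1 and 19.2 in the adjacent zone. Gm48099 was called without any 1 muscle, and the other calls were lost without muscle 1 for all 7 (adjusted p = 0.13 to 0.386), without muscle 2 for Gm15543, Gm32772, Sp100, Rps21, Rpl39 and Pfn1 (adjusted p = 0.109 to 0.273), without muscle 3 for Gm15543 (adjusted p = 0.336) and without muscle 4 for Gm15543, Gm32772, Sp100, Rps21, Rpl39 and Pfn1 (adjusted p = 0.0646 to 0.274).

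**Figure D5:**
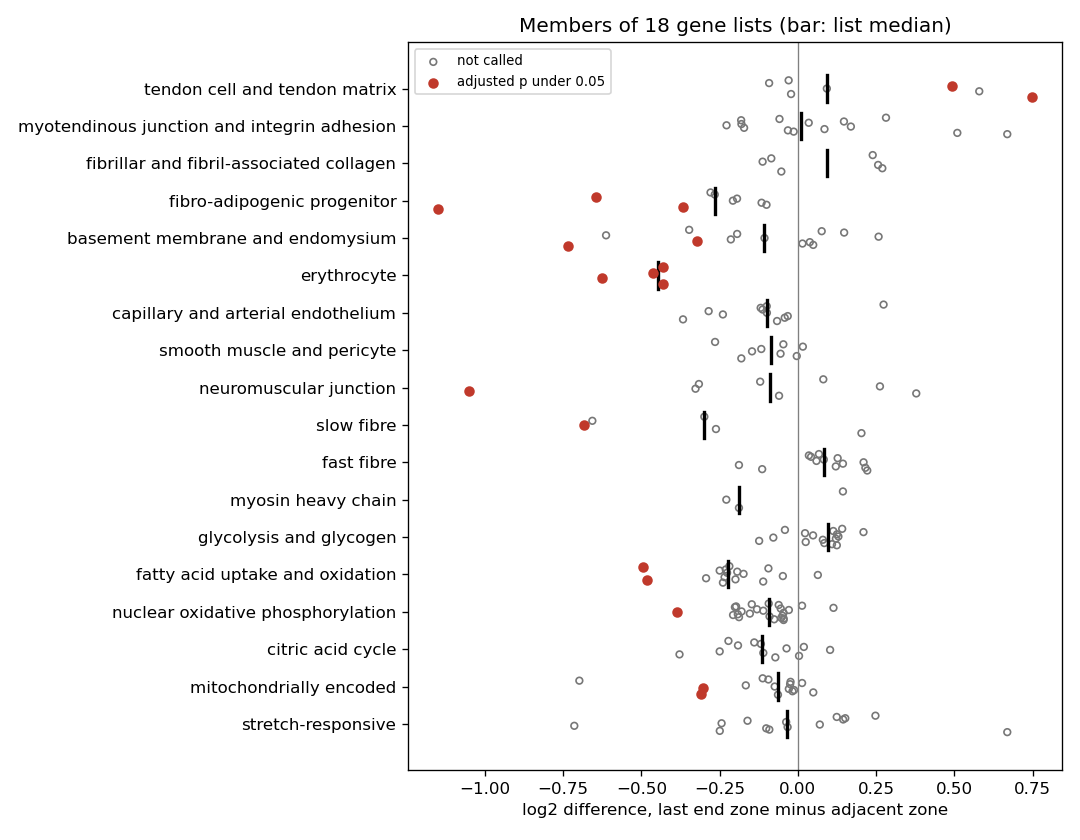
Log2 difference between the last end zone and the adjacent zone (x axis) for tested members of 18 gene lists (y axis). Filled red points passed an adjusted p of 0.05, open points did not, and black bars are list medians; the FAP and globin members all lie below 0.

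The step at the last end was set against the mirror step at the first end (zone 1 minus zone 2), which shares no section with it. No gene of 9317 passed the test of the difference between the steps (0%); 606 had an unadjusted p under 0.05 with edgeR, and DESeq2 called 0 with 303 at an unadjusted p under 0.05. Of the 51 genes called at the last end 49 were tested at the first, 37 had the same sign there and 9 were called there. Of the 7361 genes tested at both ends 52.5% had the same sign and 0.448% were called at the first. Mss51 rose at both ends, by 0.70 at the last and 0.74 at the first (adjusted p = 2.48e-09), and in the joint fit of 20 sums the steps differed by 0.02 (95% interval -0.45 to 0.48). Chrne fell at both, with differences of -1.05 and -1.43 (adjusted p = 1.56e-04), with a difference of 0.37 (95% interval -0.37 to 1.11). Net1, Dcn, Lars2, Tpsb2, Pfn1, Gm15564 and Gm48099 were the others called at both ends, all with 1 sign. For these 9 genes a p that misses the threshold does not show that the steps were equal.

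Tmem100, Lpl and Cxcl14 were called at the last end and not at the first. Tmem100 had -0.09 there (adjusted p = 0.893), and its steps differed by 0.77 (95% interval 0.44 to 1.10; adjusted p = 0.217). Lpl had -0.05 and a difference of -0.45 (95% interval -0.67 to -0.23; adjusted p = 0.461). Cxcl14 had -0.34 and a difference of -0.82 (95% interval -1.19 to -0.45; adjusted p = 0.293). None of the 3 passed over all genes, so no gene was shown to change at the last end alone. The difference between the steps contains the last step, by which these genes were chosen, so their intervals lean away from 0 and nothing is read from them. Of the 51 genes, 31 had an unadjusted p under 0.05 for this difference, against 6.5% of all genes tested, and the choice of genes bears on that count. Chad was too low to test in the separate fit of the first end, and Prg4 had -0.05 there. The joint fit did test Chad, and its steps differed by -0.43 (95% interval -1.38 to 0.52; adjusted p = 0.914). A larger step at the last end was therefore not shown for Chad. For Prg4 the steps differed by 0.54 (95% interval 0.06 to 1.02; adjusted p = 0.727). Both genes were also chosen by the last step, which bears on these intervals. From zone 3 to zone 4, a comparison that shares zone 4 with the last step, Chad had 1.57, Prg4 1.09, Mss51 0.84, Lpl -0.29 and Hba-a1 -0.43 (adjusted p = 1.80e-05, 4.13e-08, 4.27e-06, 0.0273 and 1.80e-05).

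How many genes were called depended on the muscles and on the fit. Without muscle 1, 12 genes were called between the last zones, without muscle 2, 22, without muscle 3, 63, and without muscle 4, 35. Muscles 1 and 2 alone gave 20 and muscles 3 and 4 alone gave 2. Every gene called between these zones that could be tested within a barcode set kept its sign there, with the exception of Frmd4a in muscles 3 and 4.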

How the data were processed

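RNA from serial sections of 4 muscles was counted by TOMO-seq with CEL-Seq2 primers (UMIs of 6 bases, per the labels' protocols). The authors deposited expected counts per gene and barcode: 100% are a whole number of UMIs (within 0.001, or capped) after correction for repeated draws from 4096. The submitters' processing notes name STAR 2.7.7a and GRCm38; counting program, annotation and strand: not given in the sources used here. For each muscle the authors also deposited a filtered table, with signal values equal to the counts times 1 factor per section (relative tolerance 1e-06). It served only to find kept sections (37, 45, 46 and 43), ordered by barcode number.

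Counts of single genes were summed per muscle and zone (1989683 to 6604613 per sum), rounded, and tested in R 4.3.3 with the quasi-likelihood test of edgeR 4.0.16 (TMM, filterByExpr, muscle as a block because both zones come from 1 muscle, Benjamini-Hochberg adjustment at 0.05). A second fit, on 20 sums, compared the last step with the mirror step at the first end, and another compared the outer with the inner part of the last zone. Differences per muscle used a prior count of 2. Entries of several genes (0.58% to 0.93% of counts) were left out. Coordinates are from GENCODE M21 by identifier (28895 of 28989), promoters from RefSeq. The fits were tested on data simulated with 1 dispersion for all genes. Changed genes were drawn from those with a mean of 10 CPM or more, so recovery of lower genes was not tested. Of the genes given a true log2 difference of 0.5, 72% were recovered between the zones. The share was 30% for the difference between the steps and 28% within the last zone.

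Named are the 15 largest rises and falls (5 in other comparisons) among called genes with 1 sign in all 4 muscles and mean CPM of 10 or more, called list members, and uncalled members of a few lists; clone names and pseudogenes are skipped. Members, zones and lists were chosen with earlier results of these data known. Alternatives were DESeq2 1.42.0, limma 3.58.1 (equal section weights, pseudocount 1), other scalings, filters and zone widths, distinct UMIs, thinning, no block, and leaving out sections or muscles.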

Additional observations from a re-analysis of the deposited data

Results flagged for a closer look

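The 51 genes called between the zones and the 11 called within the last zone gave 62 sets of 4 per-muscle differences. Chance flags about 1 in 20 sets of independent values. In 6 of the 62 sets, 1 muscle lay far from the other 3. Between the zones these were Mapkapk2, with 0.22 in muscle 2 against 0.42 to 0.46 in the others; Sp100, with -0.35 in muscle 3 against -0.79 to -0.76; Ndufab1, with -0.14 in muscle 3 against -0.35 to -0.31; Myl3, with -1.66 in muscle 2 against -0.63 to -0.42; and mt-Atp8, with -0.015 in muscle 1 against -0.43 to -0.37. Within the last zone it was Chad, with 0.32 in muscle 4 against 1.14 to 1.23. All of these values have the sign of the other muscles. The sets were chosen by a test that favours genes whose muscles differ alike, and some genes are in both comparisons. Nothing is therefore read from 6 of 62 against 1 in 20.

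The 5 barcodes after the last kept section of each muscle were not used in any comparison. They held 168055 to 312601 transcripts per muscle, and single barcodes 5334 to 102329. Prg4 had 181 transcripts in them over the 4 muscles (117, 50, 4 and 10), which is 564, 298, 16.6 and 32 CPM of the library total against 84.5, 61.9, 17.9 and 20.2 CPM in the last zone. Chad had 137 (35, 34, 10 and 58), which is 168, 202, 41.6 and 186 CPM against 28.1, 10.6, 8.02 and 9.08 CPM, higher in each muscle. The adipocyte gene Adipoq, at 9.61, 286, 41.6 and 73.6 CPM there, was higher than in the last zone in each muscle too, at 2.92, 6.03, 0.236 and 1.01 CPM. No value was tested, and intervals of such counts would cover counting error only.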

How the results depend on the processing

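Between the last zones 51 genes were called (17 higher). The count was 11 with DESeq2, where 7784 of 8194 genes got no adjusted p, 22 with all 20 zone sums, 140 with wider zones (0.75 to 1 against 0.5 to under 0.75), 89 for 0.9 to 1 against 0.6 to under 0.8, 20 in muscles 1 and 2 alone and 2 in muscles 3 and 4 alone. Leaving out 1 muscle gave 12 to 63, and without muscle as a block (no replicate block) 0 genes were called, with 64 at an unadjusted p under 0.05. Library totals gave 34, of which 16 higher, limma 50 with 25 higher, and distinct UMIs 75 with 38 higher. Of the 51 genes, 10 were called in all 4 fits without a muscle. Over their 978 values under alternatives 599 kept direction and call, 377 kept direction only and 2 turned: mt-Nd1 with distinct UMIs (0.39) and Frmd4a in muscles 3 and 4 (-0.10).

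Within the last zone 11 genes were called (3 higher). The count was 17 (1 higher) with library totals, which move the median of all genes to -0.16, 3 with DESeq2, 3 with limma, 3 thinned, 23 unfiltered, 34 (26 higher) with distinct UMIs, 0 without the block, 7 without the last kept section, 6 without shallow sections, 36 in muscles 1 and 2 and 2 in muscles 3 and 4; leaving out 1 muscle gave 4 to 14. Hba-a2 turned to 0.20 in muscles 3 and 4. For the difference between the steps the 0 became 5 unfiltered and 0 to 1 without a muscle. The causes of these changes were not tested. Depth limits low genes: between the zones thinning left 5756 genes tested and 34 called.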
